A study of Mus musculus with 10 samples.

Results

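The hepatocyte identity transcription factors described here are 9 genes, Hnf4a, Foxa1, Foxa2, Foxa3, Cebpa, Prox1, Onecut1, Onecut2 and Nr5a2, chosen by name out of the 24537 gene symbols of a table of raw RNA-seq counts. Messenger RNA had been measured in 10 whole livers of male mice in which hepatocytes were edited with AAV8-TBG-saCas9, an adeno-associated virus that expresses a small Cas9 from TBG, a promoter active in hepatocytes, so that other liver cells should be left largely unedited. The young controls (n = 3, genotype Rosa26-KO, virus at 7 months, RNA at 9 months) and the old controls (n = 3, genotype Rosa26-KO, virus at 23 months, RNA at 25 months) carried a guide to Rosa26, a locus used as a neutral target. The old knockout livers (n = 4, virus at 23 months, RNA at 25 months) carried a guide to Cd44, which encodes a receptor for hyaluronan on the cell surface; replicates 1 and 2 had guide 4 (Cd44-KO_g4) and replicates 3 and 4 had guide 2 (Cd44-KO_g2). All groups had therefore received the virus and a cutting guide, none was left untreated, and there was no young knockout. Comparing old with young controls asks how the 9 factors differ with age, and comparing old knockout with old control livers asks whether removing Cd44 from hepatocytes changes them.

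Hepatocytes keep their character through a small set of transcription factors that bind each other's regulatory regions as well as the genes of plasma proteins, bile acid synthesis, lipid transport and glucose production. The nuclear receptor HNF4A is the central member, the FOXA proteins open chromatin for it, and C/EBP alpha drives many metabolic genes of the resting hepatocyte. PROX1, the ONECUT factors and the nuclear receptor NR5A2 (also called LRH-1) act in liver development and, in the adult, on lipid, bile acid and circadian programmes.

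Positions are those of GENCODE M21 on the GRCm38 (mm10) mouse assembly. On the plus strand, Hnf4a spans chr2:163506808-163572910, Cebpa chr7:35119293-35121928 and Onecut1 chr9:74861921-74891781. On the minus strand, Foxa1 spans chr12:57540628-57546916, Foxa2 chr2:148042877-148046969, Foxa3 chr7:19013284-19023538, Prox1 chr1:190118035-190170714 and Nr5a2 chr1:136842571-136960448. The bases just upstream of the start sites of the 3 factors that were lower in the old livers are shown beside those of Cebpa, whose level did not pass the test with age, so that their sequences can be read side by side. They come from RefSeq (GRCm38.p6), run 5′ to 3′ on the gene's strand and leave out annotated exons. Capitals mark the motif matches named next.
Hnf4a, upstream start (chr2:163506607-163506807): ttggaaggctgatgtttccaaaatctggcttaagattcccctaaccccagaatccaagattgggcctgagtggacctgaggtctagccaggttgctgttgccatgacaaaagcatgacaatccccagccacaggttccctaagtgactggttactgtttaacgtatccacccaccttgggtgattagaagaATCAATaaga
Hnf4a, downstream start (chr2:163546943-163547154): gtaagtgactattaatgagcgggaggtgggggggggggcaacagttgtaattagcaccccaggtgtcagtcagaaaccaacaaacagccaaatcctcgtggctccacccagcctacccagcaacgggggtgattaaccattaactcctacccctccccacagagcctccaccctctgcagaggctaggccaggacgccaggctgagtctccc
Foxa3 (chr7:19023540-19023789): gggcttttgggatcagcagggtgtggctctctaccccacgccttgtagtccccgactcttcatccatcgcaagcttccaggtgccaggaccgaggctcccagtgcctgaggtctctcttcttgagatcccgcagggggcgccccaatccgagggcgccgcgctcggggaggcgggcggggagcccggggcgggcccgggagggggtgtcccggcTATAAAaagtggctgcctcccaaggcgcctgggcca
Prox1, upstream start (chr1:190170828-190171077): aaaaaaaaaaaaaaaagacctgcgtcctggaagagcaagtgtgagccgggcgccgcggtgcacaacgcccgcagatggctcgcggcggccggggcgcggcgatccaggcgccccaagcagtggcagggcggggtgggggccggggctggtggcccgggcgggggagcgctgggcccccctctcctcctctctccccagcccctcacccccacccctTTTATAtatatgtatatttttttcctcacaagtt
Cebpa (chr7:35119043-35119292): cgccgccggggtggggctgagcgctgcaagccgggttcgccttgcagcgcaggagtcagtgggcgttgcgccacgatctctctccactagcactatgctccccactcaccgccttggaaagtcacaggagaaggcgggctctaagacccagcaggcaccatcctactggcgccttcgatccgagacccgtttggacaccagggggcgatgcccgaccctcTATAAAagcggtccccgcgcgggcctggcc

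The letter strings searched on both strands of the 250 bases before each start were TGTTTAC for FOXA, CAAAGTCCA for HNF4, TTGCNNAA for C/EBP, ATTGAT for ONECUT, CAAGGTCA for NR5A2 and TATAAA for a TATA box. The upstream Hnf4a start held 1 ONECUT match on the opposite strand, 59 bases before the RefSeq start. The bases shown end before that start, where the GENCODE exon begins. The downstream Hnf4a start, the one known to be used in adult liver, held none of the strings. A TATA box match lay 36 bases before the Foxa3 start, 34 bases before the upstream of the 2 Prox1 starts (on the opposite strand) and 30 bases before the Cebpa start. The downstream Prox1 start, not shown, held none of the strings. Among 32851 RefSeq windows of the same length, 6.72% held ATTGAT and 12.4% held TATAAA, while TGTTTAC was in 3.17%, TTGCNNAA in 9.56%, CAAGGTCA in 1.33% and CAAAGTCCA in 0.384%. Over the 13 windows of the 8 factors searched (Onecut2 was not used here), 5 held a TATA box match, 2 an ONECUT match, 1 a FOXA match and 1 a C/EBP match. These are matches of letters and not measured binding, and the counts, which are per gene, do not separate the 2 starts of Hnf4a or of Prox1.

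Each liver had between 15821198 and 21710228 counts. Values are CPM, counts per library scaled to a common size, with trimmed mean of M values (TMM) factors; at this depth 3 counts correspond to 0.131 to 0.198 CPM. Cd44, the edited gene, was at 10.1 to 16.6 CPM in the young controls, 14.2 to 30.0 CPM in the old controls and 13.1 to 29.0 CPM in the knockout livers, so its level in whole liver did not separate knockout from old control livers (log2 fold change −0.25, adjusted p 0.896, edgeR's quasi-likelihood test). Whole liver includes cells that the TBG promoter does not reach, so this level is a weak check of the labels. Old control replicate 3 stood apart: genes with over 6.63 kb of exon lay 0.28 (log2) above genes with under 2.65 kb, relative to the mean of all livers, against −0.10 to 0.06 in the other 9 livers. The number in its sample title also lies outside the run of numbers in the other titles. The labels do not say whether this liver was prepared separately. Old control replicate 2 stood apart too, with a summed level of 10 neutrophil and myeloid progenitor markers of 323 CPM and of 8 macrophage and leukocyte markers of 985 CPM, against 33.9 to 40.8 CPM and 252 to 371 CPM in the other old controls. In every liver, hepatocyte genes dominated, 11 measured hepatocyte markers summing to between 97808 and 154260 CPM, led by Alb (albumin, 53019 to 95064 CPM) and Apoa1 (7408 to 12258 CPM).

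All 9 factors were detected in every liver and passed the filter on low counts. Per kilobase of exon, Hnf4a was the highest of them in the young livers, at 236 ± 13.2 CPM per kb (SD, n = 3), followed by Cebpa at 150 ± 23.2 and Foxa3 at 59.1 ± 6.3 CPM per kb. Foxa2 came next at 16.0 ± 4.3 CPM per kb, and these 4 levels did not overlap between neighbours. Foxa1 (6.0), Nr5a2 (4.9), Onecut2 (4.3), Prox1 (3.8) and Onecut1 (2.9 CPM per kb) followed, and each of these overlapped its neighbour in the order. In the old controls the first 2 places changed over, with Cebpa at 141 ± 11.9 and Hnf4a at 121 ± 46.4 CPM per kb, whose ranges overlapped. In the knockout livers Cebpa, at 174 ± 11.7 CPM per kb, lay above Hnf4a, at 123 ± 5.5 CPM per kb, in 4 of 4 livers.

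**Figure D1:**
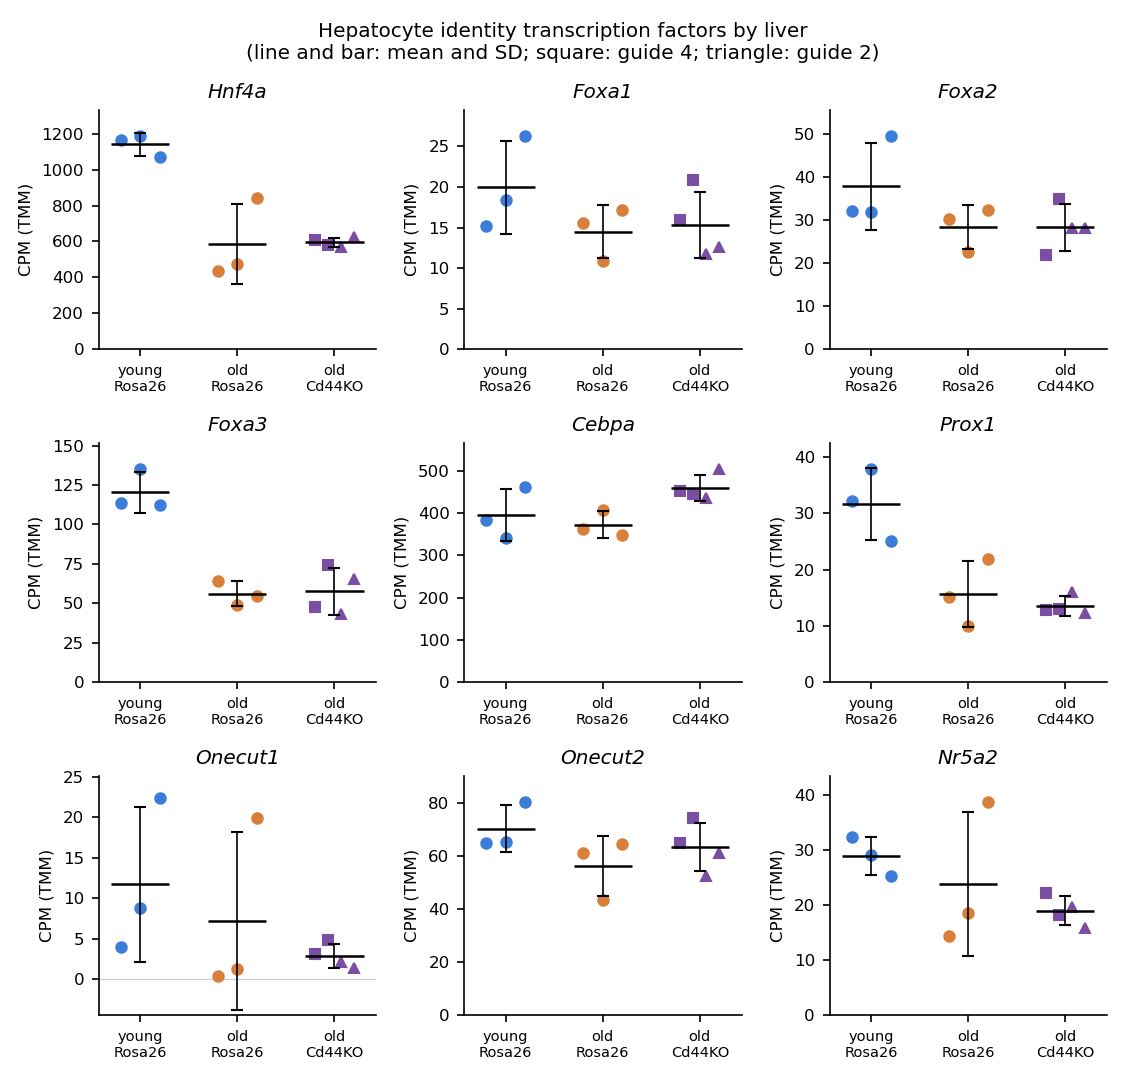
CPM (TMM-scaled, linear axes) of the 9 factors in each of the 10 livers; circles are controls, squares knockout livers with guide 4, triangles knockout livers with guide 2, and lines with bars the group mean and SD. Hnf4a, Foxa3 and Prox1 are lower in every old liver than in every young liver, Cebpa stays between 341 and 504 CPM, and 1 old control liver (replicate 3) lies above the other old controls for Hnf4a, Prox1, Onecut1 and Nr5a2.

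With age, the RNA of 3 factors fell: Hnf4a to 0.512 of the young level, Foxa3 to 0.465 and Prox1 to 0.494. Of the 9, 9 had a lower fitted value in old than in young controls and 3 passed the test, with a median log2 fold change of −0.46 against 0.04 for all 13909 genes tested. Across all genes, 22.8% passed in either direction and 8.66% passed as lower in old livers; 3 of 9 factors is 33.3%. The old and young livers did not overlap for 4 of the 9 (Hnf4a, Foxa3, Prox1 and Onecut2), close to the 37.7% of all genes that did not overlap in either direction. Because these are whole livers, fewer hepatocytes and less RNA of a factor per hepatocyte cannot be told apart.

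Hnf4a, the nuclear receptor that binds the promoters and enhancers of a large share of liver genes, was at 1167, 1188 and 1069 CPM in young control replicates 1, 2 and 3. It was at 437, 475 and 842 CPM in old control replicates 1, 2 and 3. The highest old liver therefore lay below the lowest young liver, and replicate 3 lay well above the other 2 old livers. The log2 fold change was −0.96 (SE 0.22), with a 95% interval of −1.45 to −0.48 and adjusted p 0.0147 by edgeR's quasi-likelihood test. Without old control replicate 3 it was −1.33, adjusted p 0.000813. Without old control replicate 2 the call was lost (−0.84, adjusted p 0.0604), as it was without young control replicate 2 (−0.94, adjusted p 0.0612) and in a fit to only the young and old controls (adjusted p 0.0582). A noncoding transcript annotated on the opposite strand, Hnf4aos, had 30 to 82 counts per liver, between 0.221% and 0.923% of the Hnf4a counts; whether the counting used strand is not given in the sources used here.

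Foxa3, the FOXA gene most expressed in adult liver and a regulator of glucose production, was at 114, 135 and 112 CPM in the young controls. In the old controls it was at 64.4, 48.6 and 54.8 CPM. The groups lay far apart, the old livers being at 53.5%, 40.4% and 45.6% of the young mean. The log2 fold change was −1.11 (SE 0.21; adjusted p 0.00936, edgeR's quasi-likelihood test). Foxa3 was the steadiest of the calls, passing in 6 of 6 fits that left out 1 control liver and in 9 of 9 fits with another tool, scaling, filter or set of samples, with values from −1.22 to −0.79.

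Prox1, a homeobox factor that acts with HNF4A and NR5A2 and is also the master regulator of lymphatic endothelium, was at 32.1, 37.9 and 25.1 CPM in the young controls. It was at 15.2, 9.98 and 21.8 CPM in the old controls. The groups did not overlap, although the gap between the highest old and the lowest young liver was small. The log2 fold change was −1.02 (SE 0.25; adjusted p 0.0192, edgeR's quasi-likelihood test). The call was lost without old control replicate 2 (adjusted p 0.0558), young control replicate 1 (0.0501) or young control replicate 2 (0.0835), and in a fit to only the young and old controls (0.0617). Of 6 genes listed as lymphatic endothelial markers, 5 were tested and 2 passed with age, where 22.8% of all genes passed. They were Flt4 (log2 fold change 0.93, adjusted p 0.00667) and Reln (1.13, adjusted p 0.00762), both higher in edgeR's quasi-likelihood test. Which cells of the whole liver the Flt4 and Reln RNA came from was not tested. Ccl21a was at a mean of 1.62 CPM in the young and 0.671 CPM in the old controls (−1.27, adjusted p 0.138), and Pdpn, at 0.548 and 0.349 CPM, was below the filter on low counts. The 6 summed to 42.1 to 62.0 CPM in the young and 75.5 to 114 CPM in the old controls, most of it from Flt4 and Reln, and the part of lymphatic cells in the Prox1 level was not tested.

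Foxa1 and Foxa2, pioneer factors that prime liver genes during development, moved less than Foxa3. Foxa1 was at 15.2, 18.3 and 26.3 CPM in the young and at 15.5, 10.8 and 17.1 CPM in the old controls (log2 fold change −0.46, SE 0.26, adjusted p 0.221, edgeR's quasi-likelihood test). Foxa2 was at 32.2, 31.9 and 49.6 CPM in the young and at 30.3, 22.6 and 32.3 CPM in the old controls (−0.42, SE 0.22, adjusted p 0.18). For both genes the groups overlapped and young control replicate 3 was the highest of all livers. Per kilobase, the 3 FOXA genes together summed to 81.1 ± 6.2 CPM per kb in young controls, 43.8 ± 6.4 in old controls and 44.8 ± 9.9 in knockout livers (SD, n = 3, 3 and 4). The Foxa3 share of that sum was 75.5%, 77.8% and 65.6% in the young controls. It was 64.5%, 65.1% and 58.9% in the old controls and between 57.7% and 67.2% in the knockout livers, so that the share of young control replicate 3 lay inside the range of the old livers and the other 2 young livers lay above it.

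**Figure D2:**
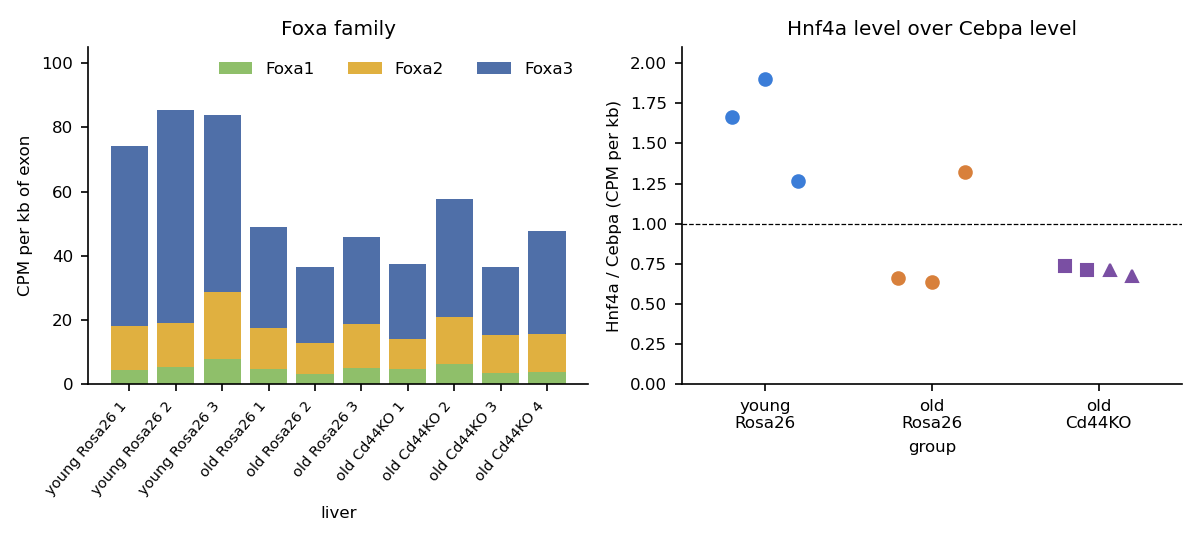
Left, CPM per kilobase of exon of Foxa1, Foxa2 and Foxa3 stacked for each liver; right, the ratio of the Hnf4a to the Cebpa level (both CPM per kb) in each liver, with a dashed line at 1 (square, guide 4; triangle, guide 2). The FOXA sum is 74.0 to 85.4 in the young and 36.5 to 57.6 in all old livers, and the ratio is above 1 in the young livers and in old control replicate 3 and below 1 in the other 6 old livers.

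Cebpa, the basic leucine zipper factor of metabolic liver genes, was at 383, 341 and 461 CPM in the young and 362, 408 and 348 CPM in the old controls. The values overlapped throughout, and the log2 fold change was −0.08 with a 95% interval of −0.40 to 0.23 (adjusted p 0.698, edgeR's quasi-likelihood test). It had the narrowest range of the 9 over the 10 livers, 1.48-fold from lowest to highest, and 83.7% of the genes tested varied more. The ratio of Hnf4a to Cebpa per kilobase was 1.66, 1.90 and 1.26 in the young controls, 0.66, 0.64 and 1.32 in the old controls and 0.68 to 0.74 in the knockout livers. The knockout livers thus lay within a narrow band close to old control replicates 1 and 2, and old control replicate 3 lay within the young range.

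Onecut1 (HNF6), a cut-homeobox factor of bile duct and hepatocyte development, was the most variable of the 9. It had 64, 134 and 354 counts in the young controls (3.9, 8.8 and 22.4 CPM) and 7, 28 and 418 counts in the old controls (0.34, 1.3 and 19.9 CPM). The old controls thus spanned almost the whole range of the 10 livers, 65.2-fold from lowest to highest, and only 0.805% of the genes tested had a wider range. The age difference was −0.71 on the log2 scale with an SE of 1.04 (adjusted p 0.648, edgeR's quasi-likelihood test). Without old control replicate 3 it was −3.83 and passed (adjusted p 0.00769), and without young control replicate 3 it was 0.17 and did not. Leaving out old control replicate 1 or 2 gave −0.15 and −0.21, so the size rested on single livers of both groups, and the call appeared only without old control replicate 3.

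Onecut2, the paralog of Onecut1, was at 64.9, 65.2 and 80.3 CPM in the young and 61.0, 43.3 and 64.2 CPM in the old controls. The groups did not overlap, by less than 1 CPM, and the difference of −0.32 (SE 0.18, adjusted p 0.207, edgeR's quasi-likelihood test) did not pass. Onecut1 and Onecut2 were thus unequal in spread: Onecut2 varied 1.86-fold over the 10 livers. Nr5a2, the nuclear receptor of bile acid and cholesterol genes, was at 32.3, 29.0 and 25.3 CPM in the young and at 14.3, 18.5 and 38.7 CPM in the old controls. Old control replicate 3 had the highest Nr5a2 level of all 10 livers and the other 2 old controls lay below every young liver. The age difference was −0.27 (SE 0.30, adjusted p 0.526) with that liver and −0.82 (adjusted p 0.00700) without it.

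**Figure D3:**
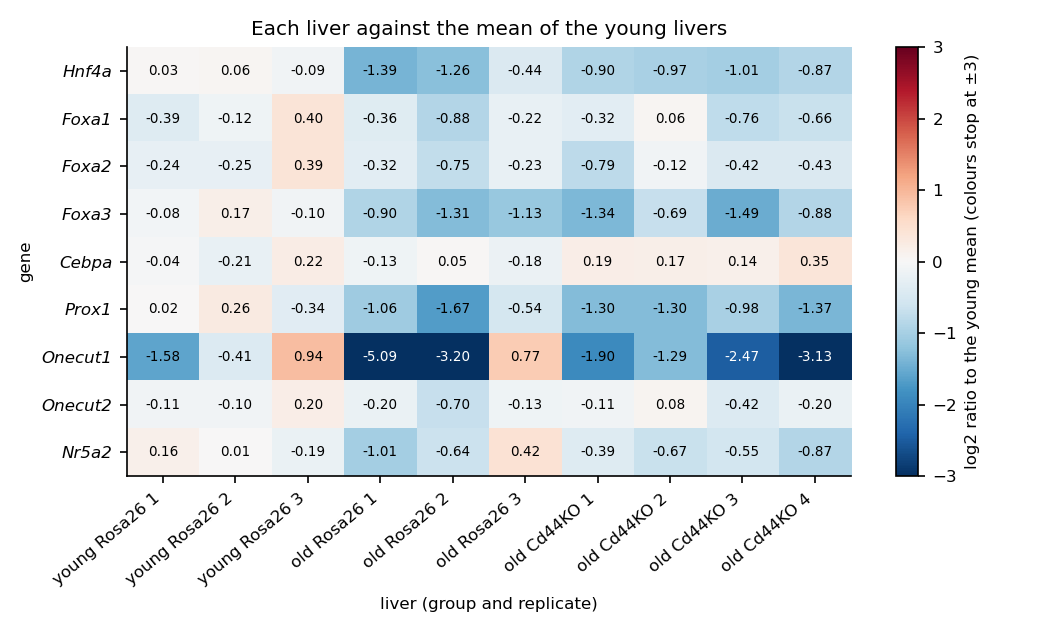
Log2 ratio of each liver's CPM to the mean of the 3 young controls, genes in rows and livers in columns, with colours limited to ±3. Foxa3 is at −0.69 or lower in all old livers, whereas old control replicate 3 differs from the other old controls at Hnf4a (−0.44), Prox1 (−0.54), Onecut1 (0.77) and Nr5a2 (0.42).

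Old control replicate 3, the liver whose long transcripts stood high, had the highest value of the 3 old controls for 7 of the 9 factors, the exceptions being Foxa3 and Cebpa. Old control replicate 2, the liver with high leukocyte markers, had the lowest value for 5 of the 9. Without replicate 3, 5 of 9 factors passed as lower with age (Hnf4a, Foxa3, Prox1, Onecut1 and Nr5a2), with 5327 genes called among all genes. Without replicate 2, 1 factor passed, Foxa3, and 1032 genes in all. After an offset for exon length and GC content in each library, Hnf4a (−1.05, adjusted p 0.0125), Foxa3 (−1.11, adjusted p 0.00871) and Prox1 (−1.03, adjusted p 0.0126) still passed in edgeR's quasi-likelihood test. The part of leukocyte RNA in the differences between old livers was not tested.

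The scaling matters for the direction of the smaller values. With total counts in place of TMM factors the median of all genes moved by 0.31, from 0.04 to 0.34, and calls with age moved from 1967 higher and 1205 lower to 3872 higher and 354 lower. On that scale 8 of 9 factors were lower in old controls and Cebpa turned to 0.22, while Hnf4a (−0.68, adjusted p 0.0169), Foxa3 (−0.79, adjusted p 0.0208) and Prox1 (−0.73, adjusted p 0.0280) still passed in edgeR's quasi-likelihood test.

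None of the 9 factors passed the test for a difference between old knockout and old control livers. The count was 0 of 9, as it was 0 of all 13909 genes (0%) in edgeR's quasi-likelihood test; at an unadjusted p under 0.05 there were 916 genes, among them 1 factor, and DESeq2 called 7 genes and limma voom 0, none of them a factor. The fitted values were higher for 5 factors and lower for 4, with a median of 0.03 against −0.02 for all genes. This comparison shares its old controls with the age comparison, so that a liver which is high among the old controls pulls both.

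Hnf4a in the knockout livers was at 610 and 581 CPM (guide 4) and at 567 and 625 CPM (guide 2). These 4 values lay between the lower 2 and the highest of the old controls and spread much less (SD 26.3 against 224 CPM). The log2 difference from old controls was 0.03, with a 95% interval of −0.42 to 0.48. Foxa3, at 47.5 and 74.5 CPM (guide 4) and 42.9 and 65.3 CPM (guide 2), differed by 0.04 (interval −0.38 to 0.46), and Prox1, at 12.8, 12.9, 16.1 and 12.3 CPM, by −0.21 (interval −0.73 to 0.31). For these 3 factors, the knockout livers overlapped the old controls and the intervals span 0, so neither a rise nor a fall of that size can be told from none.

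Cebpa was the 1 factor whose knockout and old control livers did not overlap, against 6.1% of all genes. Its values were 451 and 444 CPM (guide 4) and 436 and 504 CPM (guide 2), above the highest old control (408 CPM) in 4 of 4 livers. The difference was 0.30 (SE 0.14), p 0.0496 before and 0.748 after adjustment by edgeR's quasi-likelihood test, so it did not pass; over the other tools, scalings and filters the adjusted p ranged from 0.655 to 0.906 and the difference from 0.29 to 0.31. The young controls, at 341 to 461 CPM, overlapped both groups.

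Foxa1 was at 16.0, 20.8, 11.8 and 12.6 CPM in knockout replicates 1 to 4 and Foxa2 at 21.8, 35.0, 28.3 and 28.2 CPM. Both lay across the old control range, with log2 differences of 0.08 (interval −0.46 to 0.62) and −0.0028 (interval −0.45 to 0.44). Onecut2, at 64.9, 74.2, 52.4 and 61.0 CPM, differed by 0.17 (interval −0.20 to 0.53). Onecut1 had 54, 110, 45 and 23 counts in the knockout livers (3.1, 4.8, 2.1 and 1.3 CPM). In CPM all 4 lay above old control replicates 1 and 2, but knockout replicate 4 barely so (1.34 CPM against 1.28 CPM, from 28 counts, in old control replicate 2). All 4 lay far below old control replicate 3. The difference of −1.32 (SE 1.0) therefore became 1.80 without that liver, and did not pass in either case (adjusted p 0.814 with it). Nr5a2, at 22.1, 18.2, 19.7 and 15.8 CPM, also turned sign, with −0.33 (SE 0.28) over all livers and 0.21 without old control replicate 3.

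**Figure D4:**
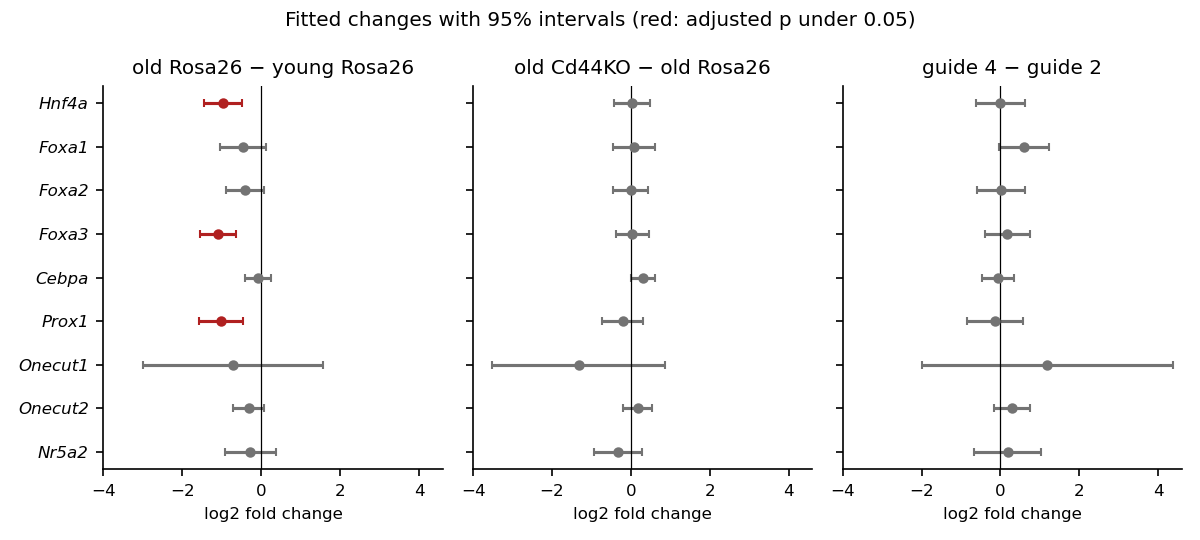
Fitted log2 fold changes of the 9 factors with 95% intervals (points and bars, edgeR) for old against young controls, knockout against old controls and guide 4 against guide 2; red marks an adjusted p under 0.05. Hnf4a, Foxa3 and Prox1 are red in the age panel (TMM scaling), no factor is red in the other panels, and Onecut1 has the widest interval in all 3.

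Against the young controls, which the age comparison also uses, the same 3 factors passed in the old knockout livers. Hnf4a (−0.94, SE 0.20, adjusted p 0.0230), Foxa3 (−1.06, SE 0.19, adjusted p 0.0140) and Prox1 (−1.23, SE 0.23, adjusted p 0.0164) were lower in the knockout livers by edgeR's quasi-likelihood test. These were 3 of 9 factors, with 11.6% of all genes called in either direction and 4.97% as lower. In the knockout livers Hnf4a stood at 49.7% to 54.7% of the young mean, Foxa3 at 35.6% to 61.9% and Prox1 at 38.6% to 50.8%. Knockout and young livers did not overlap for 4 of the 9 factors, Hnf4a, Foxa3, Prox1 and Nr5a2. Among all genes, 40% did not overlap in either direction. Hnf4a passed in 1 of 7 fits that left out 1 liver (adjusted p 0.0336 to 0.0985), Foxa3 in 6 and Prox1 in 5; without young control replicate 2 none of the 3 passed and the count over all genes dropped from 1614 to 56. Nr5a2 (−0.61, adjusted p 0.152) and Onecut1 (−2.03, adjusted p 0.179) passed only when the fit held the young and knockout livers alone (adjusted p 0.00979 and 0.0228), and Cebpa (0.22) passed only on total counts (0.53, adjusted p 0.0339).

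Between the 2 Cd44 guides, with 2 livers each, no factor passed the test. Guide 4 and guide 2 livers differed at 3 of all genes tested (0.0216%) and at 0 of 9 factors in edgeR's quasi-likelihood test, with 603 genes and none of the factors at an unadjusted p under 0.05; DESeq2 called 69 genes and 0 factors. Hnf4a had the same mean with both guides, 596 ± 20.7 CPM with guide 4 and 596 ± 40.6 CPM with guide 2 (SD, n = 2 each). Foxa1 was higher in both guide 4 livers (16.0 and 20.8 CPM) than in both guide 2 livers (11.8 and 12.6 CPM), with a difference of 0.60 (SE 0.28, unadjusted p 0.0617). Onecut2 (0.30, interval −0.16 to 0.76) and Onecut1 (1.19, interval −1.98 to 4.36) were also higher in both guide 4 livers and did not pass. These were 3 of 9 factors without overlap between guides, against 38.6% of all genes. Taken separately against the old controls, guide 2 livers differed at 3 genes (0.0216%; 106 with DESeq2) and guide 4 livers at 0 genes (0%; 544 at an unadjusted p under 0.05, and 1 with DESeq2), and no factor was among them; at 2 livers a guide, only large changes would be seen.

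Among 29 other regulators of hepatocyte genes, chosen as nuclear receptors, partners and cofactors of the 9, 5 passed with age in edgeR's quasi-likelihood test, a lower share than the 22.8% of all genes. Zbtb20, a repressor of fetal liver genes, fell the most (−1.56, adjusted p 0.00877), from 6.7 to 8.6 CPM down to 1.9 to 3.0 CPM. The C/EBP relatives Cebpb (−0.77, adjusted p 0.0235) and Cebpg (−0.52, adjusted p 0.0151) fell as well, whereas Cebpa did not pass. Nr2f2 (COUP-TFII), an orphan nuclear receptor expressed in vascular and stromal cells as well as hepatocytes, rose (0.84, adjusted p 0.00877) from 22.8 to 25.3 CPM up to 35.7 to 48.1 CPM. Ppargc1a, a coactivator of HNF4A in glucose production, also rose (0.95, adjusted p 0.0269). The list's median was −0.15 against 0.04 for all genes; 0 of 29 passed between knockout and old control livers, and 5 of 29 between knockout and young livers, where 11.6% of all genes passed.

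Of 23 genes known to be bound or driven by these factors, 19 were lower with age, with a median of −0.24 against 0.04 for all genes. The 3 that passed, all lower, are a smaller share than the 22.8% of all genes called in either direction and not far from the 8.66% called lower. They were Otc, a urea cycle enzyme (−0.68, adjusted p 0.0135), Mttp, which loads lipid onto apolipoprotein B (−0.57, adjusted p 0.0356), and Tat, the tyrosine aminotransferase (−0.84, adjusted p 0.0479), by edgeR's quasi-likelihood test. Otc was at 463, 553 and 433 CPM in the young and 270, 310 and 323 CPM in the old controls, without overlap. None of the 23 passed between knockout and old control livers. Between knockout and young livers 3 of 23 passed, where 11.6% of all genes passed. Mttp (−0.57) and Tat (−0.87) were lower and the sterol transporter gene Abcg5 (0.90, adjusted p 0.0420, edgeR's quasi-likelihood test) was higher. Of 10 genes of fetal liver, 7 were tested and 1 passed with age, Afp, at 1.1 to 1.3 CPM in young and 1.8 to 4.2 CPM in old controls (1.10, adjusted p 0.0450). The 11 hepatocyte markers had 0 calls with age, with a median of −0.24, and 0 calls between knockout and old control livers. Alb, Apoa2, Ttr and Cps1 are in this list and among the 23 target genes, so the medians of the lists are not independent. Between knockout and young livers 2 of 11 passed, both lower, where 11.6% of all genes passed. They were the secreted proteins Fga (−1.46, adjusted p 0.0411) and Fgb (−1.15, adjusted p 0.0479), by edgeR's quasi-likelihood test. Mean Fga was 10831 CPM in young controls, 4732 CPM in old controls (SD 3355) and 3929 CPM in knockout livers. Mean Fgb was 9196, 4708 (SD 2741) and 4152 CPM in the same order.

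**Figure D5:**
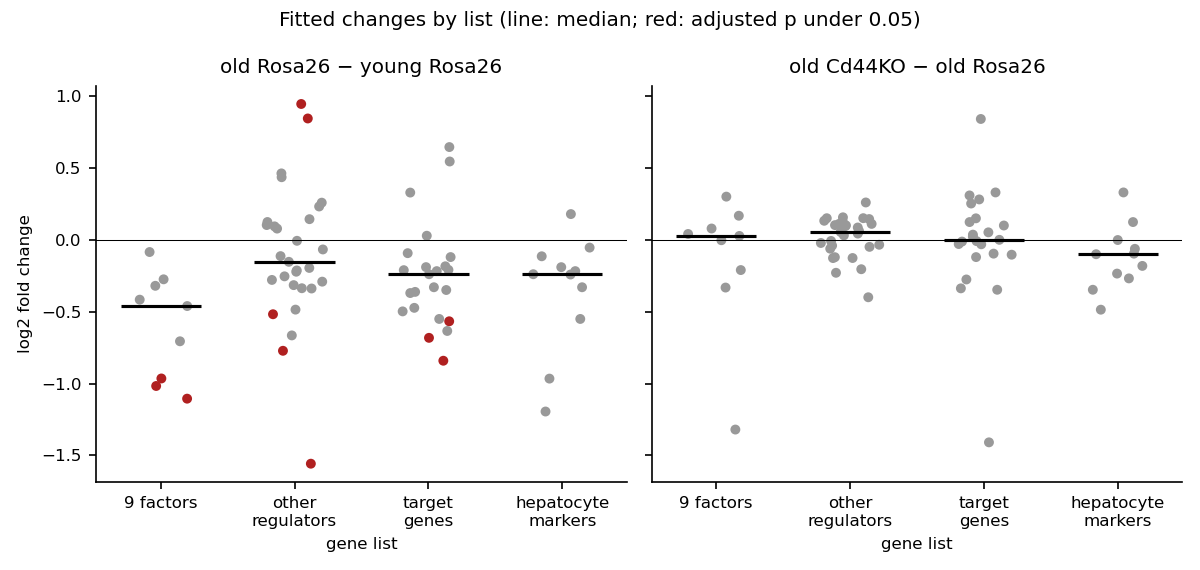
Fitted log2 fold changes (edgeR, TMM scaling) of the 9 factors, 29 other regulators, 23 target genes and 11 hepatocyte markers, for old against young controls (left) and knockout against old controls (right); each point is a gene, the line the median of the list, and red an adjusted p under 0.05; sideways scatter only separates points. With age the medians are −0.46, −0.15, −0.24 and −0.24, and no gene of these lists is red in the knockout panel. The target genes and the hepatocyte markers share Alb, Apoa2, Ttr and Cps1, so their medians are not independent.

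Marker RNA of hepatocytes and of other cell types was summed in the same livers. The summed level of 11 hepatocyte markers was 123892 to 154260 CPM in young controls, 97808 to 132642 CPM in old controls and 103710 to 108013 CPM in knockout livers, and old control replicate 3, the liver with high Hnf4a, Prox1 and Nr5a2, had the highest of the old values. Cholangiocyte markers, which mark a cell type that also expresses Onecut1, Foxa1 and Foxa2, summed to 69.0 to 132, 117 to 167 and 107 to 199 CPM, with 0 of 8 tested called with age and Spp1 the highest (35.7 to 140 CPM). Neutrophil and myeloid progenitor markers (14.4 to 21.7, 33.9 to 323 and 25.4 to 43.8 CPM) had 6 of 7 called higher with age, and macrophage and leukocyte markers (126 to 179, 252 to 985 and 201 to 449 CPM) 7 of 8. Across all genes, 22.8% were called with age in either direction. The sums of 323 and 985 CPM were those of old control replicate 2. The other old controls had 33.9 and 40.8 CPM of the neutrophil and 252 and 371 CPM of the leukocyte markers. Old control replicate 2 was the highest liver for the neutrophil genes S100a8 (62.3 CPM), Mpo (31.6 CPM), Ngp (63.0 CPM) and Csf3r (15.4 CPM) and for the leukocyte and macrophage genes Ptprc (37.7 CPM), Cd68 (84.8 CPM), Adgre1 (40.5 CPM) and Clec4f (431 CPM), and in the other livers Ngp and Mpo did not exceed 2.97 CPM. Pancreatic acinar markers, looked at because Nr5a2 and Foxa2 are also pancreatic factors, summed to 8.7 to 14.8 CPM in all livers and 4 of 10 were at 0 throughout, Cela1 (6.69 to 12.8 CPM) being the highest. The part of these other cells in the factor levels was not tested. With both old control replicates 2 and 3 left out, the age differences of Hnf4a, Foxa3 and Prox1 were −1.39, −0.91 and −1.07. Replicate 1 alone then stood for the old controls and was assumed to vary like the others. That liver had the lowest Hnf4a level of all 10 livers (437 CPM) and the highest Foxa3 level of the old controls (64.4 CPM). Its leukocyte (252 CPM) and neutrophil (40.8 CPM) marker sums were themselves above those of every young liver.

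Across the 10 livers, which share their group differences, the levels of Foxa1 and Onecut2 followed each other most closely among the factors (Pearson r 0.92 on log2 CPM, Spearman rho 0.94). With each group's mean taken out their r was 0.93, that of Hnf4a and Nr5a2 was 0.91 and that of Cebpa and Prox1 was −0.79. Old control replicate 3 stood above the other old controls for Hnf4a (842 against 437 and 475 CPM) and Nr5a2 (38.7 against 14.3 and 18.5 CPM). Knockout replicates 1 to 4 were at 610, 581, 567 and 625 CPM for Hnf4a and 22.1, 18.2, 19.7 and 15.8 CPM for Nr5a2. How far the r of 0.91 rests on 1 liver was not tested. Hnf4a and Foxa3, both lower with age, had r 0.80 over all livers and −0.0098 within groups: the 3 young livers were the highest 3 for both genes, and no linear relation was seen once the group means were taken out. These are descriptions over 10 livers that share scaling and groups, with no test.

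Among all genes tested, those whose level followed Hnf4a most closely were Adnp2 (r 0.99), a zinc finger homeobox gene, and Acadsb (r 0.99), an enzyme of branched-chain amino acid breakdown. Prox1 was followed by Apoh (r 0.97), a plasma glycoprotein gene, and St5 (r 0.97), Nr5a2 by Hrg (r 0.98), another plasma glycoprotein gene, and Slc25a13 (r 0.98), the mitochondrial carrier citrin, and Onecut1 by Acnat2 (r 0.97) and Tcaim (r 0.97). For Foxa3 the closest were Wdr82 and Ercc8 (both r 0.95), for Foxa2 Plk3 (r 0.91) and Abhd17b (r 0.89), for Foxa1 Onecut2 and Mast4 (r 0.89), for Onecut2 Foxa1 and Tmem267 (r 0.90), and for Cebpa A930033H14Rik (r 0.87) and Pdik1l (r 0.85). Of these, Adnp2 (−0.73, adjusted p 0.0229), Wdr82 (−0.39, adjusted p 0.0275), St5 (−0.44, adjusted p 0.0389) and Abhd17b (−0.76, adjusted p 0.0307) were lower with age by edgeR's quasi-likelihood test. Of all genes tested, 22.8% passed with age in either direction. The genes named here were picked for the highest r over the same livers, group differences included, so each r is a selected maximum. A gene picked for following Hnf4a, Foxa3 or Prox1, which fell with age, is more likely to be lower with age. The age calls of these genes are therefore not independent of how they were picked. Acadsb (−0.43, adjusted p 0.0620), Apoh (−0.20, adjusted p 0.270) and Hrg (−0.24, adjusted p 0.500) did not pass, although Acadsb and Hrg kept an r of 0.99 with Hnf4a and 0.98 with Nr5a2 after group means were taken out.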

How the data were processed

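The 9 factors and all gene lists were chosen with earlier results of these data known. The authors deposited a table of raw, unnormalized counts with gene symbols as rows and livers as columns; the submitters' processing notes name FastQC 0.11.8, Trim Galore 0.4.4, STAR 2.5.3a, HOMER and the mm10 build, and the gene annotation, the counting settings and the use of strand are not given in the sources used here. The RNA was selected for poly(A) and read as pairs, per the labels' protocols. Groups come from the sample titles; replicate numbers only name livers. Nothing states that the livers came from separate animals, so p-values measure the spread between these samples; no pair of livers in a group was as alike as repeat counts of 1 library (lowest chi-square per degree of freedom 20.3).

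The test was edgeR 4.0.16 (R 4.3.3), its quasi-likelihood test fitted to all 10 livers with a coefficient for each group, TMM factors and filterByExpr (minimum count 10, minimum total 15), which kept 13909 of 24537 symbols; 5807 had no count. Benjamini-Hochberg adjustment ran over all of these genes, with a threshold of 0.05. The CPM given for 3 counts covers counting error only. Log2 CPM used a prior count of 2. Exon lengths are unions of GENCODE M21 exons, and 97.6% of the genes tested had a length and GC content. Of 131 list entries 127 matched a symbol; 1 regulator first listed is not reported here.

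Named genes are the 9 factors, from every list up to 5 called genes with the smallest adjusted p, of marker lists also the 2 highest by mean CPM, and for each factor the 2 genes with the highest r. Alternatives were DESeq2 1.42.0, limma voom (limma 3.58.1), median-ratio factors, total counts, no filter, at least 1 CPM in 3 libraries, only the groups compared, at least 2-fold and each liver left out; an offset for length and GC and leaving out both old control replicates 2 and 3 were chosen after seeing the data. The fits were also run on simulated counts, which held no outlying livers, to check only the sign of called changes.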

Additional observations from a re-analysis of the deposited data

Results flagged for a closer look

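Of 111 values tested for a knockout liver standing apart from the other 3, 6 stood out, close to the 5.55 that chance gives at about 1 in 20. The measure is the gap to the nearest liver divided by the whole range, held against Dixon's 95% critical value for 4 livers. Among the factors only the Foxa2 share of the FOXA sum stood out, at 32.6% in knockout replicate 3 against 24.7% to 25.6% in the others (gap ratio 0.882). Among the other lists, Ppara was lowest in replicate 4 (130 CPM against 179 to 189, ratio 0.838), Hdac3 was highest in replicate 4 (42.5 CPM against 38.4 to 39.1, ratio 0.840), and Ncor1 was highest in replicate 3 (63.9 CPM against 54.2 to 55.3, ratio 0.887). Otc was lowest in replicate 2 (307 CPM against 382 to 392, ratio 0.891), and Ngp, a neutrophil granule gene, was highest in replicate 3 (2.97 CPM against 0.35 to 0.57, ratio 0.917). The control groups hold 3 livers each and were not examined in this way.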

How the results depend on the processing

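No paired analysis was possible because no replicate number, litter or animal in the labels links livers of different groups. With age, 3 factors passed under every alternative tool, scaling and filter tried, except 1 in a fit to only the groups compared and 2 at 2-fold or more. Leaving out single livers gave 1 to 5. The count over all genes, 3172, was 1540 at 2-fold or more, 1192 with only the groups compared, and 396 to 5327 with a liver left out. Against young livers, the knockout livers had 3 factors called (5 with only the groups compared, 0 to 3 with a liver left out) and 1614 genes (2718 with DESeq2, 969 with voom, 4223 with only the groups compared, 3585 on total counts, 756 at 2-fold or more, 56 to 1652 with a liver left out). The count of 0 for knockout against old controls was 7 with DESeq2 and 0 to 3 with a liver left out, and that for guide 4 was 1 with DESeq2. The 3 genes between guides were 69 with DESeq2, 10 with no filter, 31 with only the groups compared and 0 to 0 with a liver left out; the 3 for guide 2 were 106, 25 and 1 under those settings, 10 with voom, and 0 to 3 with a liver left out. The cause of these shifts was not tested.

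Signs turned only for values that passed in neither setting. On total counts, Cebpa with age became 0.22, Onecut2 against young 0.17, Foxa2 in the knockout 0.023 and Foxa2 with guide 2 0.0050. With voom, Onecut1 became 0.31 in the knockout and 0.90 with guide 4, and Foxa2 0.0082 with guide 2, −0.013 with guide 4 and −0.021 between guides. With the length and GC offset, Foxa3 in the knockout was −0.0048 and Foxa2 −0.054 with guide 4 and −0.040 between guides. Foxa2 with guide 4 was −0.0027 with DESeq2 and −0.0012 with median-ratio factors, and Hnf4a between guides was 0.0050, 0.00013, 0.0064, 0.0030, 0.011 and 0.011 with DESeq2, voom, median-ratio factors, no filter, only the groups compared and total counts. Without old control replicates 2 and 3, the knockout values of Foxa1, Foxa3, Nr5a2 and Onecut1 were −0.017, −0.16, 0.41 and 3.04.

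Ranges that cross 0 when 1 liver is left out were, with age, −0.18 to 0.037 for Cebpa and −3.83 to 0.17 for Onecut1. In the knockout they were −0.11 to 0.22 for Foxa1, −0.14 to 0.10 for Foxa2, −0.11 to 0.16 for Foxa3, −0.14 to 0.39 for Hnf4a, −0.59 to 0.21 for Nr5a2, −1.88 to 1.80 for Onecut1 and −0.45 to 0.11 for Prox1. With guide 2 they were −0.15 to 0.095 for Foxa2, −0.38 to 0.22 for Foxa3, −0.14 to 0.39 for Hnf4a, −0.69 to 0.12 for Nr5a2, −2.59 to 1.09 for Onecut1, −0.14 to 0.12 for Onecut2 and −0.38 to 0.18 for Prox1. With guide 4 they were −0.38 to 0.30 for Foxa2, −0.24 to 0.41 for Foxa3, −0.14 to 0.39 for Hnf4a, −0.51 to 0.29 for Nr5a2, −1.40 to 2.28 for Onecut1 and −0.52 to 0.037 for Prox1. Between guides they were −0.17 to 0.037 for Cebpa, −0.37 to 0.31 for Foxa2, −0.19 to 0.51 for Foxa3, −0.068 to 0.070 for Hnf4a and −0.32 to 0.073 for Prox1. Where a guide keeps 1 liver, it was assumed to vary like the other groups. Depth limits Onecut1 most, with 7 counts in its lowest liver.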
